A study of Homo sapiens with 9 samples.

Results

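The genes described here encode the machinery that carries proteins and RNA between nucleus and cytoplasm: the nucleoporins of the nuclear pore and the karyopherins, with Ran and its regulators. They were taken by gene symbol from the deposited table (numbered NUP genes, KPNA, KPNB1, IPO, XPO, TNPO, RAN, RANBP1, RANBP2, RANGAP1, NXF1, NXT1, CSE1L, TPR and AAAS) among rows with a protein-coding transcript. This gave 53 of the 36785 genes in the table, on 18 chromosomes. RNA was sequenced after poly(A) selection from SKOV3, a human ovarian cancer line in long use that carries extra copies of ERBB2, in 9 libraries of 3 groups, all after lentiviral transduction. The group shNC has the genotype NC and served as control, sh1 is labelled STXBP6 knockdown 1 and sh3 is labelled STXBP6 knockdown 3, with 3 libraries each. Nothing in the labels ties the 3 libraries of a group to separate cultures. P-values therefore measure library-to-library spread, which may be technical.

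A nuclear pore is a ring of scaffold proteins anchored in the envelope, with flexible nucleoporins in its channel, filaments on the cytoplasmic side and a basket on the nuclear side. Importins bind cargo in the cytoplasm and release it when RanGTP binds them in the nucleus, whereas exportins bind cargo together with RanGTP. RCC1 loads Ran with GTP on chromatin, and RanGAP1 with RanBP1 or RanBP2 triggers GTP hydrolysis in the cytoplasm. Several of these proteins also act in mitosis, when the envelope opens and Ran directs spindle assembly.

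Libraries held 57654447 to 69264400 counts, and values in CPM, the counts of a gene relative to its library's total, are scaled to TMM-adjusted totals. A floor of 3 counts corresponded to 0.0439 to 0.0518 CPM. STXBP6, the targeted gene, had 4, 0 and 15 counts in shNC, 7, 4 and 26 in sh1 and 20, 31 and 18 in sh3. On library totals without TMM scaling, the mean for the controls was 0.107 ± 0.136 CPM. For sh1 it was 0.186 ± 0.166 and for sh3 0.366 ± 0.128 (SD, n = 3). By exact permutation, two-sided, sh1 against shNC had p = 0.5 and sh3 against shNC had p = 0.1, the smallest that 3 against 3 allows. The labels could therefore not be checked by this gene, and sh1 and sh3 mean the libraries labelled so. Of 10 SKOV3 and epithelial markers 7 reached a mean of 1 FPKM, with ERBB2 at 910 FPKM in shNC, while MUC16, WT1 and CDH1 stayed under it. Of the leukocyte markers CD68 alone reached it, and PTPRC, which defines those cells, had 0 counts in 8 libraries and 4 in the other. The third shNC library stood apart in part. Its counts differed from those of its group with a chi-square per degree of freedom of 17.02 and 18.9, against 9.01 to 11.1 for the other replicate pairs. For the nuclear transport genes, counts of calls and altered calls are also given without it. The other gene lists are given with all 9 libraries alone.

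Transcripts of this machinery were more abundant in both knockdown groups. The 53 genes together took 0.689%, 0.696% and 0.723% of all counts in the shNC libraries, 0.851%, 0.834% and 0.844% in sh1 and 0.790%, 0.787% and 0.790% in sh3. The 3 groups did not overlap, and sh3 lay between the other two. Tests used edgeR's quasi-likelihood fit over all 21296 genes that passed a filter on low counts, with calls made at an adjusted p under 0.05 (Benjamini-Hochberg over all of them). The filter passed 52 of the 53 genes. With sh1, 39 of the 52 rose and 2 fell, where 19.9% of all tested genes rose and 18.8% fell. With sh3, 32 rose and 2 fell, where 14.4% of all tested genes rose and 12.4% fell. The median log2 fold change of the 52 genes was 0.24 with sh1 and 0.18 with sh3, against -0.019 and -0.0096 over all tested genes.

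Of the 52 genes 31 rose with both hairpins and 0 fell with both, against 10.6% and 8.43% of all tested genes. At an unadjusted p under 0.05 in both contrasts the edgeR counts were 33 and 0, and DESeq2 gave 31 and 0 at its adjusted p, while library totals in place of TMM factors gave 27 and 1 (NUP153). Among 10934 protein-coding genes with a mean of at least 1 FPKM, a background chosen after the data were seen, 18.8% rose with both and 13.1% fell with both. Single contrasts in that background called 33.2% higher and 25.9% lower with sh1, and 24.6% and 18.1% with sh3. Of the 52 genes 32 had all 6 knockdown values above their 3 shNC values, against 13.8% of all tested genes. These were the 31, for which the calls nearly fix it, and KPNB1. None of the 52 had all 6 values below shNC, against 12.8% of all tested genes. The contrasts with sh1 and sh3 share the shNC libraries, so agreement between them is not independent. Without the third shNC library 38 rose with sh1, 35 with sh3 and 34 with both. Without the 9 genes that another gene overlaps or that have near copies with many counts, 31, 25 and 24 of 43 rose.

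Genes of the cell division machinery moved beside these. All 20 of 20 listed mitosis genes rose with each hairpin, with median log2 changes of 0.98 and 0.86. Among expressed protein-coding genes 33.2% rose with sh1 and 24.6% with sh3. The mitosis list was chosen with earlier results of these data known. The summed level of the 20 genes was 2506, 2550 and 2966 CPM in the shNC libraries, 5222, 5178 and 5215 in sh1 and 4811, 4820 and 4837 in sh3. The third shNC library was again the highest of its group and sh3 lay between shNC and sh1. Their part in the nuclear transport result was not tested. In bulk libraries, more cells in a given state and more RNA per cell cannot be told apart.

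Summed levels of some cell identity markers also differed between groups. The epithelial sum in sh3 and the fibroblast sum in sh1 lay within the shNC range. The 10 SKOV3 and epithelial markers summed to 1112 to 1218 FPKM in the shNC libraries, 715.5 to 745 in sh1 and 1140 to 1185 in sh3, where ERBB2 makes up most of the sum. With sh1 5 of the 10 fell and 1 rose, with sh3 1 fell and 3 rose, and 6 were higher in sh3 than in sh1. Among expressed protein-coding genes 25.9% fell and 33.2% rose with sh1, and 18.1% fell and 24.6% rose with sh3. In that background 19.3% were higher in sh3 than in sh1. The counts of sh3 against shNC are near these shares, and nothing is read from them. The 6 of 10 higher in sh3 than in sh1, with 1 lower, lie above the 19.3%. The 5 of 10 that fell with sh1 lie above the 25.9%. Both counts rest on 10 genes and were not tested. The leukocyte markers, nearly all of it CD68, summed to 13.7 to 15.0 FPKM in shNC, 10.4 to 11.3 in sh1 and 17.6 to 18.7 in sh3. The hepatocyte markers summed to 0.657 to 0.833 FPKM in shNC, 2.57 to 2.88 in sh1 and 2.85 to 6.49 in sh3. All 5 tested hepatocyte genes rose with sh3 and 1 of them, SERPINA1, with sh1, from levels under 1 FPKM in shNC, and ALB reached a mean of 2.37 FPKM in sh3. Fibroblast markers summed to 16.6 to 19.9 FPKM in shNC, 18.6 to 19.2 in sh1 and 13.2 to 14.3 in sh3, and endothelial markers to 1.94 to 2.21, 0.963 to 1.11 and 2.68 to 2.89. The part of these markers in the nuclear transport result was not tested.

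**Figure D1:**
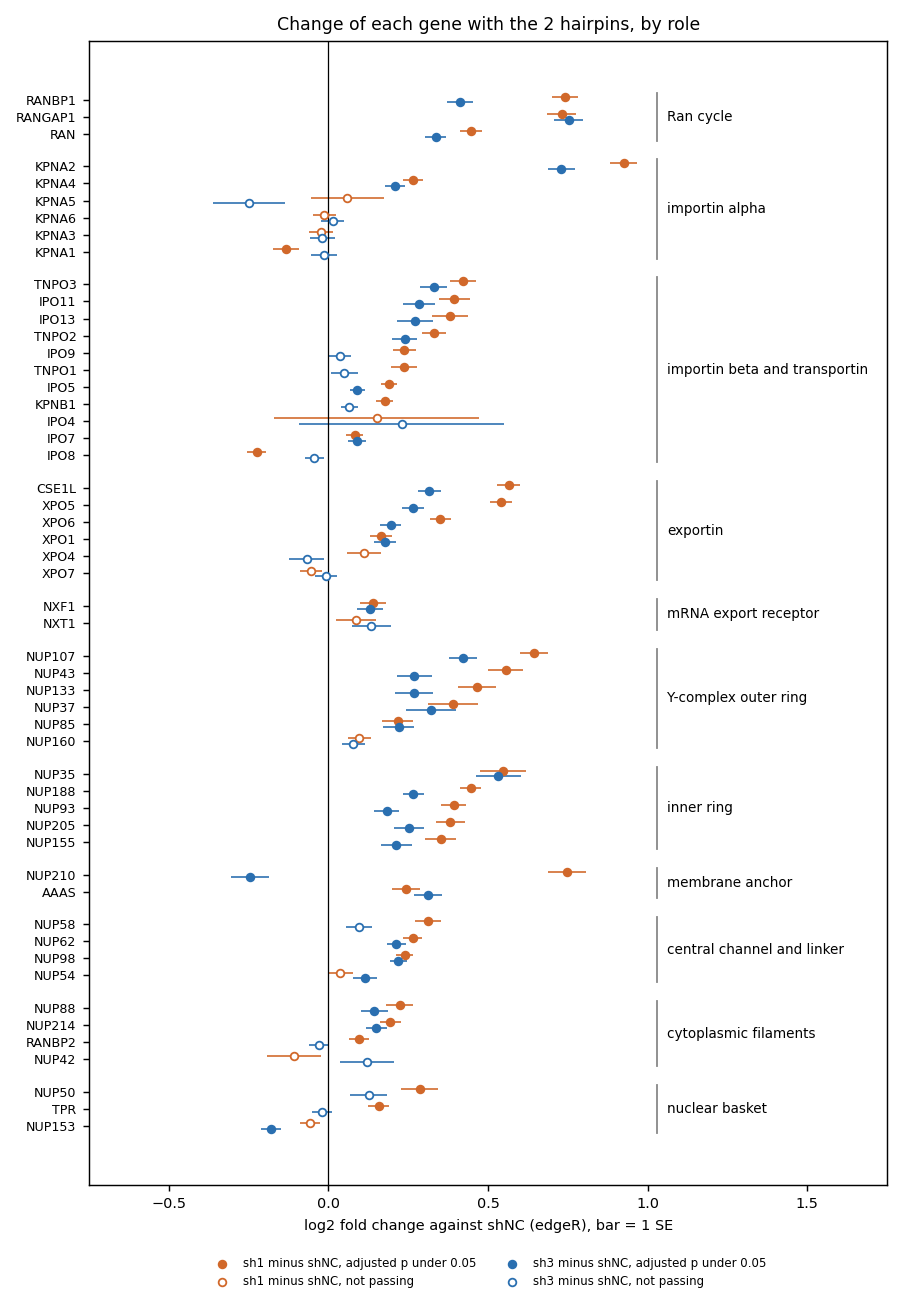
Log2 fold change (x axis) of each of the 52 tested genes (y axis, grouped by role) for sh1 and sh3 against shNC, with bars of 1 standard error over 3 libraries per group. Filled points passed an adjusted p of 0.05. Points lie mostly right of 0, NUP210 has its filled points on opposite sides, and IPO4 has long bars.

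Levels between genes are compared per length, as the deposited FPKM. The median gene here had a mean of 13.8 FPKM, against 1.895 FPKM over all tested genes, 45 of the 53 reached 5 FPKM, and 2 were under 1 FPKM. RAN was the most abundant, at 80.1 ± 3.52 FPKM in the controls, 107 ± 0.275 in sh1 and 101 ± 1.33 in sh3 (SD, n = 3). The next places changed order between groups. In shNC the order was CSE1L at 52.4 ± 2.32 FPKM, KPNB1 at 48.6 ± 1.24 and KPNA2 at 40.8 ± 2.55. In sh1, KPNA2 at 75.7 ± 1.29 FPKM stood level with CSE1L at 75.7 ± 1.8 within their spread, and KPNB1 followed at 53.7 ± 0.337. In sh3, KPNA2 at 67.5 ± 0.609 FPKM and CSE1L at 65.1 ± 1.79 were again close, with KPNB1 at 50.8 ± 0.503. Within roles the mean levels ran from 15.2 FPKM (NUP85) to 8.01 (NUP133) in the Y complex and from 20.5 (NUP188) to 4.66 (NUP35) in the inner ring. At the bottom stood KPNA5 with 0.835 FPKM and KPNA7, an importin alpha known from oocytes and embryos, which had 4 counts in the first sh3 library and 0 in the other 8.

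**Figure D2:**
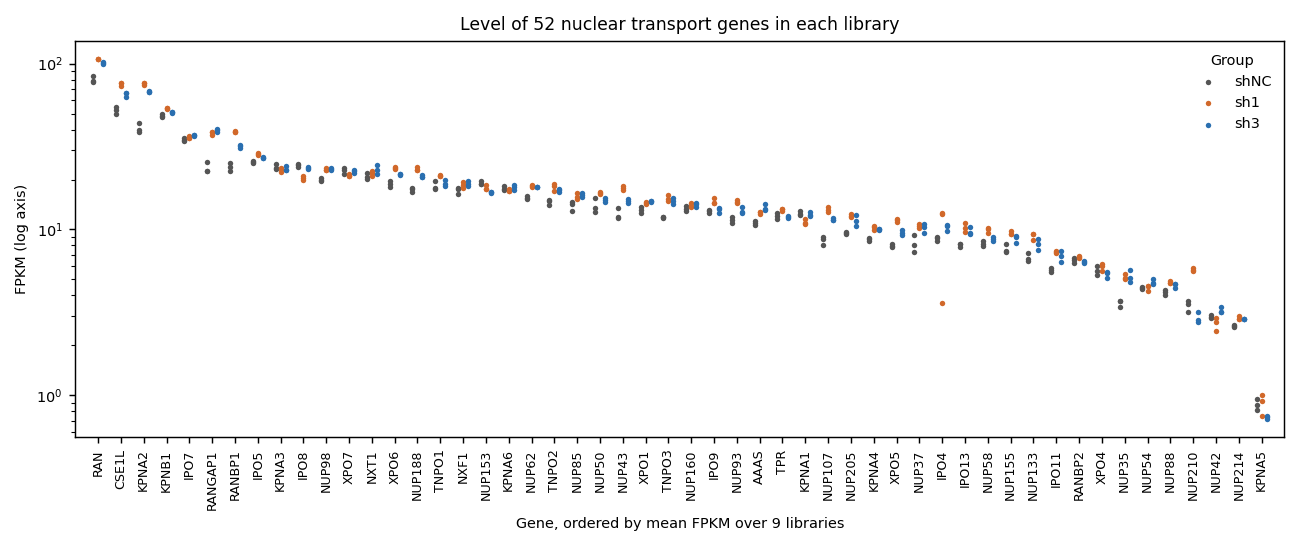
FPKM of the 52 tested genes (x axis, ordered by the mean over 9 libraries) in each library on a log axis, 1 point per library, coloured by group. RAN leads at about 100.9 FPKM in sh3, 34 genes have means of at least 10 FPKM, and 1 sh1 point of IPO4 lies apart from the rest of its group.

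The genes of the Ran cycle rose in full, 3 of 3 with each hairpin. Of expressed protein-coding genes 33.2% rose with sh1, 24.6% with sh3 and 18.8% with both. Counts by role, here and below, rest on few genes each and were not tested. RAN, the small GTPase whose nucleotide state gives transport its direction (ENSG00000132341, chromosome 12, 130872037 to 130877676, plus strand, GRCh38), held 390.3, 396 and 425 CPM in the shNC libraries, 548, 549.6 and 553 in sh1 and 521, 506 and 502 in sh3. It was higher in every knockdown library and rose 1.36-fold with sh1 and 1.26-fold with sh3 (log2 0.45 ± 0.033 and 0.34 ± 0.033, SE, adjusted p = 8.0e-07 and 1.9e-05). RANGAP1, the GTPase-activating protein for Ran (ENSG00000100401, chromosome 22, 41244779 to 41286187, minus strand), held 148, 149 and 169.6 CPM in the shNC libraries, 261, 259.5 and 253 in sh1 and 258, 264 and 263 in sh3. It rose 1.66-fold with sh1 and 1.68-fold with sh3 (log2 0.73 ± 0.046 and 0.75 ± 0.046, SE, adjusted p = 2.1e-07 and 4.9e-07), and the knockdown groups overlapped each other. RANBP1, a cytosolic cofactor of that reaction (ENSG00000099901, chromosome 22, 20115938 to 20127355, plus strand), held 112, 119 and 126 CPM in the shNC libraries, 195, 201 and 199.5 in sh1 and 160.0, 154 and 160.4 in sh3. It rose 1.67-fold with sh1 and 1.33-fold with sh3 (log2 0.74 ± 0.04 and 0.41 ± 0.04, SE, adjusted p = 6.1e-08 and 1.6e-05), and its sh3 values lay below its sh1 values. A gene on the opposite strand, TRMT2A, overlaps RANBP1 and held 22.1% as many counts. RCC1, the exchange factor that loads Ran and that was listed beside these genes, also rose, at log2 0.80 and 0.72.

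Importin alpha proteins link cargo with a classical nuclear localisation signal to importin beta. Of the 6 tested genes of this family KPNA2 and KPNA4 rose with both hairpins, KPNA1 fell with sh1, and KPNA3, KPNA5 and KPNA6 did not pass in either contrast. KPNA2 (ENSG00000182481, chromosome 17, 68035636 to 68047364, plus strand), an importin alpha abundant in dividing cells, held 309, 316 and 349 CPM in the shNC libraries, 614, 603 and 629 in sh1 and 548, 536 and 530.3 in sh3. No knockdown library came near the shNC range, and the gene rose 1.897-fold with sh1 and 1.66-fold with sh3 (log2 0.92 ± 0.041 and 0.73 ± 0.041, SE, adjusted p = 1.7e-08 and 2.9e-07), the largest rise with sh1 among the 52 genes. KPNA4 rose by less, at log2 0.26 and 0.21. KPNA3 (ENSG00000102753, chromosome 13, 49699320 to 49792682, minus strand) held 105, 107 and 113 CPM in the shNC libraries, 108, 107 and 104 in sh1 and 106, 111 and 104 in sh3. The 3 groups overlapped, and the change was log2 -0.02 ± 0.039 with sh1 and -0.02 ± 0.039 with sh3 (SE, adjusted p = 0.69 and 0.78). KPNA6 (ENSG00000025800, chromosome 1, 32108056 to 32176563, plus strand) held 147, 139 and 142 CPM in the shNC libraries, 139, 139.9 and 145 in sh1 and 146, 149 and 138 in sh3, likewise overlapping, with log2 -0.01 ± 0.036 with sh1 and 0.01 ± 0.036 with sh3 (SE, adjusted p = 0.81 and 0.85). The 2 genes were chosen for the smallest changes among those at 5 FPKM or more, so their small changes are a description. KPNA1 gave log2 -0.13 ± 0.04 with sh1 and -0.01 ± 0.04 with sh3 (SE, adjusted p = 0.02 and 0.85), and its sh1 call was lost without the first or second sh1 library or the second shNC library (adjusted p 0.084 to 0.092).

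The share of KPNA2 in the family's transcripts per length was larger in every knockdown library than in any control library, with no test made of it. KPNA2 made up 38.3%, 38.5% and 40.4% of the summed importin alpha FPKM in the shNC libraries, 54.9%, 54.5% and 55.2% in sh1 and 51.7%, 50.3% and 51.5% in sh3. The means were 39.1 ± 1.16%, 54.9 ± 0.351% and 51.2 ± 0.757% (SD, n = 3). KPNA3 went from 22.7% to 22.9% of the sum in shNC to 15.9% to 16.9% in sh1 and 17.4% to 18.2% in sh3, while its own CPM values overlapped between groups. The summed level was 102 to 108 FPKM in shNC, 136 to 139 in sh1 and 130.1 to 134 in sh3.

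**Figure D3:**
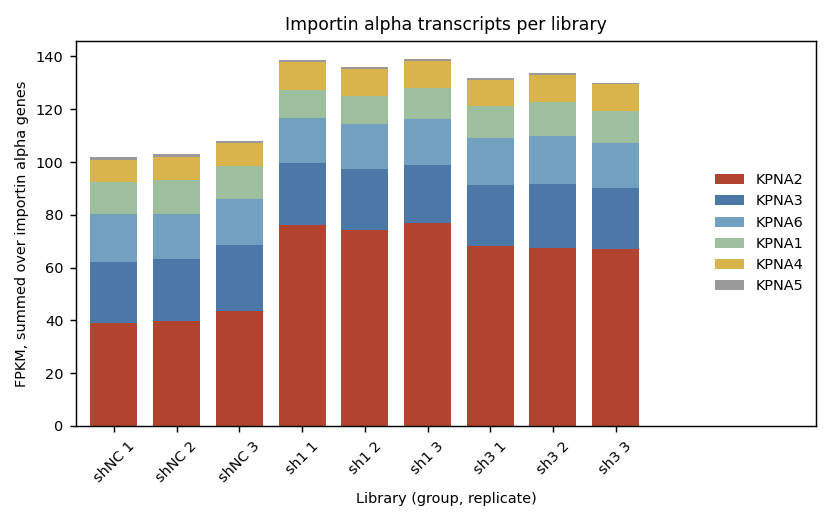
FPKM of the importin alpha genes stacked for each of the 9 libraries (x axis). The KPNA2 part grows from 38.3% to 40.4% of the bar in shNC to 54.5% to 55.2% in sh1 and 50.3% to 51.7% in sh3, while the KPNA3 and KPNA6 parts stay near one height.

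Importin beta and its relatives are the receptors that pass through the pore. Of 11 tested genes 6 rose with both hairpins, 3 more rose with sh1 alone, 1 fell with sh1, and IPO4 was not called. The share that rose with both among expressed protein-coding genes was 18.8%. KPNB1, importin beta itself (ENSG00000108424, chromosome 17, 47649476 to 47685505, plus strand), held 527, 538 and 558 CPM in the shNC libraries, 609.8, 606 and 618 in sh1 and 566, 572 and 561 in sh3. All knockdown values exceeded shNC, by small amounts, log2 0.18 ± 0.027 with sh1 and 0.07 ± 0.027 with sh3 (SE, adjusted p = 0.00022 and 0.096). Without the third shNC library its sh3 change passed as well (log2 0.09, adjusted p = 0.011). TNPO3, which carries serine/arginine-rich splicing factors (ENSG00000064419, chromosome 7, 128954180 to 129055173, minus strand), held 59.5, 59.4 and 59.8 CPM in the shNC libraries, 78.4, 83.7 and 77.4 in sh1 and 75.4, 72.0 and 77.3 in sh3. It rose 1.34-fold with sh1 and 1.26-fold with sh3 (log2 0.42 ± 0.041 and 0.33 ± 0.041, SE, adjusted p = 7.5e-06 and 0.00011). IPO11 (ENSG00000086200, chromosome 5, 62403972 to 62628582, plus strand) held 45.04, 46.1 and 47.5 CPM in the shNC libraries, 61.0, 60.1 and 61.2 in sh1 and 52.5, 56.5 and 59.9 in sh3. IPO13, which works both as an importer and an exporter (ENSG00000117408, chromosome 1, 43946950 to 43968022, plus strand), held 44.5, 43.0 and 44.98 CPM in the shNC libraries, 56.8, 53.9 and 61.8 in sh1 and 51.6, 56.3 and 51.9 in sh3. Both lay above shNC in all 6 libraries, at log2 0.39 and 0.28 for IPO11 and 0.38 and 0.27 for IPO13. TNPO2 rose at log2 0.33 and 0.24, IPO5 at 0.19 and 0.09 and IPO7 at 0.08 and 0.09. The IPO7 calls were the weakest of this group and were lost with library totals in place of TMM factors (log2 0.04 and 0.06, adjusted p = 0.23 and 0.11). They were also lost without the second shNC library (adjusted p = 0.078 and 0.076), without the second or the third sh1 library for sh1 (0.095 and 0.058), and without the first or the third sh3 library for sh3 (0.1 and 0.063). The IPO5 sh3 call was lost with library totals (log2 0.06, adjusted p = 0.077) and without the first shNC library (0.085, adjusted p = 0.055). IPO5P1, a pseudogene copy, held 3.72% as many counts as IPO5.

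TNPO1, the receptor for many RNA-binding proteins, and IPO9 rose with sh1 at log2 0.24 and 0.24, and their sh3 changes were 0.05 and 0.03 with overlapping values. Without the third shNC library the TNPO1 sh3 change passed (log2 0.10, adjusted p = 0.026). IPO8, a receptor linked to small RNA pathways, went the other way. It held 182, 174 and 181 CPM in the shNC libraries, 157, 153 and 150.5 in sh1 and 177, 171 and 173 in sh3, and the sh1 values lay below both other groups. Its change was log2 -0.22 ± 0.03 with sh1 and -0.04 ± 0.03 with sh3 (SE, adjusted p = 9.0e-05 and 0.32).

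IPO4, an importer of histones and ribosomal proteins (ENSG00000196497, chromosome 14, 24180219 to 24188869, minus strand), was the gene with the widest spread within a group. It held 46.9, 45.5 and 47.7 CPM in the shNC libraries, 67.1, 19.8 and 68.5 in sh1 and 56.8, 55.8 and 51.7 in sh3. The second sh1 library was 3.47-fold below the highest of its group, whereas the next widest ratio within any group was 1.33 (KPNA5 in sh1). In the fit its change was log2 0.15 ± 0.32 with sh1 and 0.23 ± 0.32 with sh3 (SE, adjusted p = 0.76 and 0.67). The table also lists ENSG00000259522, a gene on the same strand (chromosome 14, 24180395 to 24190416) that covers 98.0% of IPO4 and whose transcript in the GENCODE annotation is of the nonsense-mediated decay type. That gene held 15.1, 65.0 and 16.7 CPM in the sh1 libraries, 2.35, 6.95 and 7.22 in shNC, and 8.63, 8.30 and 15.5 in sh3. The library low for IPO4 was thus the one high for the overlapping gene. Together both genes gave 49.2, 52.5 and 55.0 CPM in the controls, 82.2, 84.8 and 85.2 in sh1 and 65.4, 64.1 and 67.2 in sh3, with no overlap between groups. With these counts summed, an alternative chosen after seeing the data, the locus rose 1.61-fold with sh1 and 1.26-fold with sh3 (log2 0.69 ± 0.044 and 0.33 ± 0.044, SE, adjusted p = 2.4e-07 and 1.9e-04). Leaving out the second sh1 library instead gave log2 0.54 and 0.23 for IPO4 alone (adjusted p = 1.8e-05 and 0.0041). The sources used here do not give how reads were divided between overlapping genes.

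**Figure D4:**
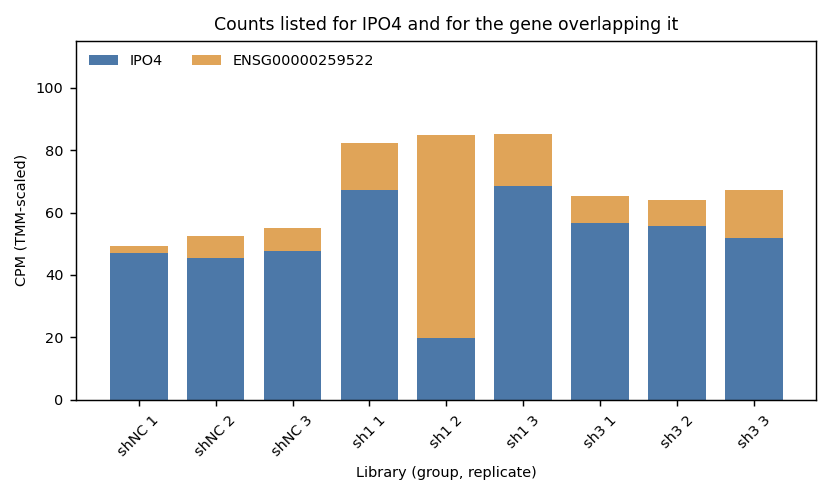
CPM of IPO4 and of the overlapping gene ENSG00000259522 stacked for each library (x axis). In the second sh1 library 76.7% of the stack belongs to the overlapping gene, against 18.3% and 19.6% in the other sh1 libraries, and the total heights fall into 3 separate groups.

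Exportins carry cargo out of the nucleus, and 4 of 6 rose with both hairpins, against 18.8% of expressed protein-coding genes. CSE1L, which returns importin alpha to the cytoplasm (ENSG00000124207, chromosome 20, 49046246 to 49096960, plus strand), held 204, 216 and 224 CPM in the shNC libraries, 319.7, 309 and 324 in sh1 and 261, 272 and 269.8 in sh3. The 3 groups did not overlap, with sh3 between shNC and sh1, and the gene rose 1.48-fold with sh1 and 1.25-fold with sh3 (log2 0.56 ± 0.037 and 0.32 ± 0.037, SE, adjusted p = 2.6e-07 and 6.0e-05). XPO5, the exporter of microRNA precursors (ENSG00000124571, chromosome 6, 43522334 to 43576038, minus strand), held 72.9, 71.4 and 75.05 CPM in the shNC libraries, 108, 106 and 104 in sh1 and 88.0, 85.4 and 90.05 in sh3, in the same order, and rose 1.45-fold with sh1 and 1.20-fold with sh3 (log2 0.54 ± 0.035 and 0.27 ± 0.035, SE, adjusted p = 2.5e-07 and 0.00016). The gene POLR1C overlaps XPO5 on the opposite strand and held 23.7% as many counts. XPO1, the main exporter of proteins with leucine-rich signals, rose at log2 0.16 and 0.18 and XPO6, the exporter of actin, at 0.35 and 0.20. XPO4 gave 0.11 and -0.07 and XPO7 -0.05 and -0.01, and neither passed, though the XPO4 sh1 change did without the third shNC library (log2 0.17, adjusted p = 0.023). Of the receptors for bulk mRNA, NXT1 (ENSG00000132661, chromosome 20, 23350791 to 23354771, plus strand) held 23.1, 23.8 and 25.2 CPM in the shNC libraries, 26.1, 25.7 and 24.7 in sh1 and 26.5, 27.9 and 24.7 in sh3. Its groups overlapped, with log2 0.09 ± 0.061 with sh1 and 0.13 ± 0.061 with sh3 (SE, adjusted p = 0.31 and 0.14). Its partner NXF1 rose by small amounts, log2 0.14 and 0.13, calls that library totals removed (log2 0.10 and 0.10, adjusted p = 0.074 and 0.087). They were also lost without the third shNC library (0.10 and 0.095, adjusted p = 0.052 and 0.094), without the first sh1 library for sh1 (adjusted p = 0.072), and without the second or the third sh3 library for sh3 (0.067 and 0.11).

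Most scaffold genes taken by the symbol rule rose. Of the 6 such genes of the Y complex, the outer ring of the pore, 5 rose with both hairpins and 0 fell. Expressed protein-coding genes rose with both in 18.8% of cases and fell with both in 13.1%. The further Y-complex genes SEC13, SEH1L and AHCTF1 fall outside the symbol rule and are given with the wider list below. NUP107 (ENSG00000111581, chromosome 12, 68686971 to 68745809, plus strand) held 70.5, 76.9 and 78.8 CPM in the shNC libraries, 117, 114 and 122 in sh1 and 101, 99.6 and 103 in sh3. The groups did not overlap, and it rose 1.56-fold with sh1 and 1.34-fold with sh3 (log2 0.64 ± 0.044 and 0.42 ± 0.044, SE, adjusted p = 4.1e-07 and 2.9e-05). NUP43 (ENSG00000120253, chromosome 6, 149724315 to 149749665, minus strand) held 56.9, 55.7 and 64.9 CPM in the shNC libraries, 88.7, 86.5 and 85.3 in sh1 and 73.5, 69.3 and 70.9 in sh3, with sh3 between the others. It rose 1.47-fold with sh1 and 1.21-fold with sh3 (log2 0.56 ± 0.054 and 0.27 ± 0.054, SE, adjusted p = 7.3e-06 and 0.003), beside PCMT1, an overlapping gene on the opposite strand with 194% as many counts. NUP37 (ENSG00000075188, chromosome 12, 102073103 to 102120120, minus strand) held 27.3, 30.4 and 34.9 CPM in the shNC libraries, 41.0, 39.5 and 40.8 in sh1 and 40.9, 36.0 and 38.7 in sh3, close to the control range at its lower end, and NUP85 (ENSG00000125450, chromosome 17, 75205659 to 75235758, plus strand) held 72.0, 79.4 and 82.2 CPM in the shNC libraries, 93.9, 89.6 and 87.8 in sh1 and 93.4, 88.7 and 89.8 in sh3. Their changes were log2 0.39 and 0.32 and 0.22 and 0.22 (adjusted p at most 0.0102), and NUP133 gave 0.47 and 0.27. NUP160 gave 0.10 and 0.08 and passed in neither contrast, though its sh1 change passed without the second shNC library (log2 0.13, adjusted p = 0.021).

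The inner ring, which links the outer rings to the channel, rose in all 5 of its genes with each hairpin. For expressed protein-coding genes the share that rose with both was 18.8%. NUP35 (ENSG00000163002, chromosome 2, 183117513 to 183161680, plus strand) held 14.8, 16.0 and 16.3 CPM in the shNC libraries, 23.7, 22.6 and 22.5 in sh1 and 21.3, 24.8 and 22.1 in sh3. It rose 1.46-fold with sh1 and 1.45-fold with sh3 (log2 0.55 ± 0.072 and 0.53 ± 0.072, SE, adjusted p = 7.7e-05 and 0.00019), and its knockdown groups overlapped. NUP188 (ENSG00000095319, chromosome 9, 128947699 to 129007096, plus strand) held 145, 155 and 154 CPM in the shNC libraries, 209, 202 and 206 in sh1 and 182, 184 and 179 in sh3. It rose 1.36-fold with sh1 and 1.20-fold with sh3 (log2 0.45 ± 0.032 and 0.27 ± 0.032, SE, adjusted p = 5.6e-07 and 7.8e-05), with sh3 again between the others. NUP93, NUP155 and NUP205 gave log2 0.39 and 0.18, 0.35 and 0.21 and 0.38 and 0.25. SH3GLB2 overlaps NUP188 by 61 bases on the opposite strand and held 106% as many counts.

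Of the genes at the pore membrane, NUP210 was called in opposite directions. NUP210, a transmembrane nucleoporin whose level varies between cell types (ENSG00000132182, chromosome 3, 13316235 to 13420322, minus strand), held 51.2, 53.5 and 45.8 CPM in the shNC libraries, 85.0, 84.1 and 83.6 in sh1 and 40.4, 41.2 and 45.4 in sh3. The sh1 values were far above both other groups, while the sh3 values ended just below the lowest shNC value. The changes were log2 0.75 ± 0.06 with sh1 and -0.25 ± 0.06 with sh3 (SE, adjusted p = 1.4e-06 and 0.0098), and the sh3 value was 0.50 of the sh1 value (log2 -0.99 ± 0.06, adjusted p = 4.5e-07), the largest difference between the hairpins among the 52 genes. AAAS, the nucleoporin ALADIN (ENSG00000094914, chromosome 12, 53307456 to 53324864, minus strand), held 54.3, 55.7 and 57.7 CPM in the shNC libraries, 65.9, 66.8 and 65.6 in sh1 and 67.7, 73.3 and 67.0 in sh3. It rose 1.18-fold with sh1 and 1.24-fold with sh3 (log2 0.24 ± 0.043 and 0.31 ± 0.043, SE, adjusted p = 0.00079 and 0.00024), and was the one gene among the 31 whose 3 sh3 values all lay above its sh1 values. That difference did not pass (log2 0.07 ± 0.043, adjusted p = 0.29).

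In the channel NUP98 and NUP62 rose with both hairpins. NUP98, whose transcript also encodes the Y-complex protein Nup96 (ENSG00000110713, chromosome 11, 3671083 to 3797792, minus strand), held 274, 277 and 289 CPM in the shNC libraries, 332, 328 and 331 in sh1 and 323, 326 and 328 in sh3. It rose 1.18-fold with sh1 and 1.16-fold with sh3 (log2 0.24 ± 0.027 and 0.22 ± 0.027, SE, adjusted p = 2.1e-05 and 8.9e-05). NUP62, a phenylalanine-glycine nucleoporin of the channel, gave 0.26 and 0.21, and its partner NUP58 gave 0.31 and 0.10, of which the sh1 change passed, and without the third shNC library the sh3 change too (log2 0.13, adjusted p = 0.023). NUP54, a further protein of that channel complex, gave 0.04 and 0.11, with the sh3 call lost in 13 of 16 alternatives (adjusted p up to 0.19), among them leaving out any sh3 library, the first or second shNC library, or the first or second sh1 library.

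At the periphery of the pore, in the filaments and the basket, 2 of 7 genes rose with both hairpins, a number too small to set apart from the 18.8% of expressed protein-coding genes. Of 4 cytoplasmic filament genes NUP88 and NUP214 rose with both hairpins, at log2 0.22 and 0.14 and 0.19 and 0.15, and NUP42 was not called. The NUP88 sh3 call was lost without the first or the third sh3 library or the second shNC library (adjusted p = 0.085, 0.063 and 0.087), and both sh3 calls were lost with limma on log2(FPKM + 1) (0.06 and 0.066). NUP88 is overlapped on the opposite strand by RABEP1, with 103% as many counts. RANBP2, the large filament protein that binds RanGTP and sumoylated RanGAP1 (ENSG00000153201, chromosome 2, 108719482 to 108785810, plus strand), held 194, 190.2 and 182 CPM in the shNC libraries, 203, 199 and 203 in sh1 and 189, 184 and 181 in sh3. Its sh1 change of 0.10 ± 0.031 passed (SE, adjusted p = 0.03), its sh3 change of -0.03 ± 0.031 did not, and the sh1 call was lost with library totals (log2 0.06, adjusted p = 0.17). It was also lost without the first or the third sh1 library (0.078 and 0.072) or the second or the third shNC library (0.052 and 0.072). Near-identical RGPD genes, 7 in the table, held 70.1% as many counts as RANBP2, so how its reads were shared out is uncertain. None of the 3 basket genes rose with both hairpins. NUP153 (ENSG00000124789, chromosome 6, 17615035 to 17706925, minus strand), which holds other proteins to the nuclear side of the pore, held 124, 125 and 129 CPM in the shNC libraries, 125, 119 and 119 in sh1 and 111, 112 and 111 in sh3. The sh3 values lay below both other groups, with log2 -0.06 ± 0.032 with sh1 and -0.18 ± 0.032 with sh3 (SE, adjusted p = 0.18 and 0.0013). TPR, the basket's filament protein, gave 0.16 and -0.02 and NUP50 gave 0.29 and 0.13, of which the sh1 changes passed. Without the third shNC library the NUP50 sh3 change passed too (log2 0.21, adjusted p = 4.8e-04).

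**Figure D5:**
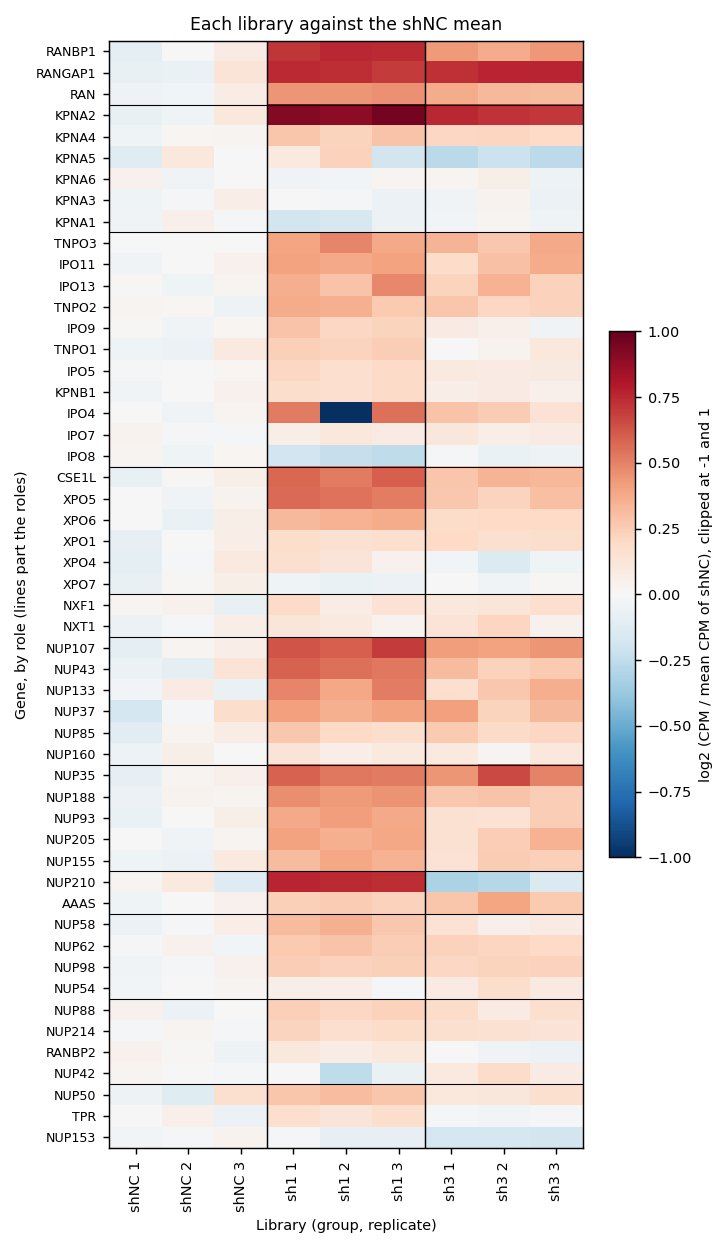
Log2 ratio of each library's CPM to the shNC mean (colour, clipped at -1 and 1) for 52 genes in rows, grouped by role, and 9 libraries in columns. The 3 sh1 columns are the reddest, the sh3 columns are paler, NUP210 is red in sh1 and blue in sh3, and the second sh1 library is dark blue for IPO4.

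The hairpins were compared directly with the contrast of sh3 minus sh1, which does not use the shNC values in its means. Of the 52 genes 21 were lower in sh3 and 2 higher, where 13.0% of all tested genes were lower and 12.9% higher. Among the expressed protein-coding genes 20.9% were lower and 19.3% higher. The median log2 difference was -0.10, against 0.0055 over all tested genes. Of the 31 genes that rose with both hairpins, 26 had the larger change with sh1, and 12 of the 31 were called lower in sh3 than in sh1, with 0 called higher. The largest called differences after NUP210 were those of RANBP1 (log2 -0.33 ± 0.04, adjusted p = 0.0001), NUP43 (-0.29 ± 0.054, adjusted p = 0.0022), XPO5 (-0.27 ± 0.035, adjusted p = 0.00014) and CSE1L (-0.25 ± 0.036, adjusted p = 0.00041). RANGAP1, NUP35, NUP85 and NUP98 had estimates near 0 (log2 0.02 ± 0.046, -0.01 ± 0.071, 0.00 ± 0.049 and -0.02 ± 0.027, SE). IPO8 (log2 0.18 ± 0.03, adjusted p = 0.001) and KPNA1 (0.12 ± 0.04, adjusted p = 0.049) were the 2 genes higher in sh3.

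Some calls of a difference between the hairpins were lost when 1 library was left out, mostly for differences under 0.2 in size. Fits with fewer libraries can lose a call near the threshold with little change in the estimate. The KPNA1 difference was lost without the first or second sh1 library, any sh3 library or the first shNC library (adjusted p = 0.054 to 0.19). The RAN difference of -0.11 lost its call without any 1 of the sh1 libraries or the second or the third sh3 library (adjusted p = 0.069 to 0.11). The RAN estimates in those fits were -0.098 to -0.114. The XPO4 difference of -0.18 was lost without the first or second sh1 library or the second or the third sh3 library (0.059 to 0.12). The NUP133 difference of -0.20 was lost without the first or the third sh1 library or the first or second sh3 library (0.068 to 0.11), the NUP153 difference of -0.12 without the first sh1 library or the third sh3 library (0.073 and 0.052), and the RANBP2 difference of -0.13 without the third sh3 library (0.055). Other genes gained a call in the same way. Thus, without the third shNC library the NUP50 and NUP155 differences passed (log2 -0.16 and -0.14, adjusted p = 0.0016 and 0.016), without the third sh3 library those of NUP205 and IPO11 (-0.18 and -0.16, adjusted p = 0.011 and 0.04), and without the third sh1 library those of KPNA5 and TNPO2 (-0.42 and -0.13, adjusted p = 0.02 and 0.039).

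Genes of the same pathway outside the symbol rule were read from a fixed list of 26 symbols, of which 24 were in the table and tested. With sh1 14 rose and 0 fell, with sh3 10 rose and 0 fell, and 9 rose with both. Among expressed protein-coding genes 33.2% rose with sh1, 24.6% with sh3 and 18.8% with both. The leading ones were RCC1, with means of 82.0 CPM for the controls, 143 for sh1 and 135 for sh3, and the transmembrane nucleoporin NDC1, at 98.2, 146 and 118 (log2 0.57 and 0.27). The list's median log2 changes were 0.13 and 0.08. SEC13, of the Y complex, gave 0.26 and 0.13, and RAE1, a further pore protein, gave 0.26 and 0.23. NUTF2, which brings RanGDP back to the nucleus, gave 0.38 and 0.15. SEH1L, also of the Y complex, gave 0.12 and -0.03, of which the sh1 change passed (adjusted p = 0.0358). SEH1L was lower in sh3 than in sh1 (log2 -0.15, adjusted p = 0.0165). AHCTF1, a Y-complex gene whose protein starts pore assembly on chromatin, gave 0.03 and 0.06 and passed in neither contrast. Of 18 genes of the THO, TREX and mRNA export list, 6 rose and 3 fell with sh1, and 5 rose and 1 fell with sh3. These counts are near the shares among expressed protein-coding genes, 33.2% higher and 25.9% lower with sh1 and 24.6% and 18.1% with sh3, and nothing is read from them. The adaptor ALYREF gave 0.65 and 0.42 and the helicase DDX39A 0.66 and 0.45, while THOC2 gave -0.24 and -0.15. THOC6 had the largest fall of the list with sh1 at -0.57, gave -0.04 with sh3, and is named after its values were seen.

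Promoter sequence is shown for KPNA2, RANGAP1, CSE1L, NUP35 and NUP107, which rose with both hairpins, and for the pair that did not move. The rising genes shown were chosen without a fixed rule and do not stand for the others. RefSeq promoters on GRCh38.p14, 250 bases before to 50 after the start site, matched 46 of the 53 genes, and of 11 with several the one nearest the table's gene start was used. RANBP1, KPNB1, NUP43, XPO7, KPNA7, KPNA4 and KPNA5 had no match. Shown are the 120 bases before the start site, on the gene's strand, 5′ to 3′, with capitals for any motif match on either strand. The CCAAT box was searched as CCAAT. The cell cycle element called CHR was searched as TTTGAA and also as TTCGAA. For the factor NRF1 the search used GCATGCG. For the ETS family of factors it used CCGGAAG. For the factor YY1 it used AGATGGC. For the E2F family of factors it used TTGGCGC and also TTCGCGC. Matches of different motifs may overlap. The places are chr17:68035615-68035734 for KPNA2, chr22:41286188-41286307 for RANGAP1, chr20:49046192-49046311 for CSE1L, chr2:183124323-183124442 for NUP35, chr12:68686858-68686977 for NUP107, chr13:49792683-49792802 for KPNA3 and chr1:32107936-32108055 for KPNA6. RANGAP1 and KPNA3 are read from the minus strand, and the NUP35 window starts inside the gene as the deposited table places it.
KPNA2: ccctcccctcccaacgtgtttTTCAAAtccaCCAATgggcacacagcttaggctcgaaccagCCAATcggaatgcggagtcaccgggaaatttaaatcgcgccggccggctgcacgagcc
RANGAP1: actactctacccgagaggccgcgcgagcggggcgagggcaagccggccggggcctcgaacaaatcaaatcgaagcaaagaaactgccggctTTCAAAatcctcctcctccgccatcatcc
CSE1L: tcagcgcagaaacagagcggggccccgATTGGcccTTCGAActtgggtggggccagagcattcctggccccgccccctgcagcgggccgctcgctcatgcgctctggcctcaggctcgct
NUP35: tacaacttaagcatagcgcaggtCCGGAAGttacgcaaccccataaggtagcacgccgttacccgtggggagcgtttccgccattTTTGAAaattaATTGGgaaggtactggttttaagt
NUP107: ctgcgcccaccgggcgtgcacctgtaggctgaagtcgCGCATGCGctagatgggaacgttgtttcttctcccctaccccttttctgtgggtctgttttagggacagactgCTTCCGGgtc
KPNA3: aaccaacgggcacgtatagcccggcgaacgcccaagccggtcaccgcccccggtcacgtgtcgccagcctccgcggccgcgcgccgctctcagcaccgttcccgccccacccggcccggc
KPNA6: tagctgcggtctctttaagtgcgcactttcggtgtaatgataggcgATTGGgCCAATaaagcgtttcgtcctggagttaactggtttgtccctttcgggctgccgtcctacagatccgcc

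KPNA2, CSE1L and NUP35 each held a CCAAT and a CHR match in these windows, NUP35 also an ETS match, RANGAP1 a CHR match, and NUP107 overlapping NRF1 matches and an ETS match. KPNA3 held none, and KPNA6 held 2 CCAAT matches. RAN, TNPO3 and NUP37 ranked above CSE1L by the smaller of their 2 changes but are not shown. In their 300 bases RAN held a CHR and a YY1 match, TNPO3 held ETS matches alone, and NUP37 held a CCAAT, a CHR and an ETS match. Over the full 300 bases a CHR match was in 10 of 28 matched genes that rose with both hairpins (35.7%), in 1 of 18 others (5.56%), in 16.4% of all 35116 promoters in the table and in 10.7% of 8953 promoters of expressed protein-coding genes. CCAAT was in 15 of 28 (53.6%), 7 of 18 (38.9%), 34.6% of all promoters and 37.0% of the expressed ones. NRF1 matches were in 4 of 28 (14.3%) and 1 of 18 (5.56%), against 3.91% and 6.80%. YY1 matches were in 6 of 28 (21.4%) and 0 of 18, against 5.41% and 7.90%. ETS matches were in 7 of 28 (25.0%) and 5 of 18 (27.8%), against 10.3% and 21.2%, and E2F matches in 4 of 28 (14.3%) and 2 of 18 (11.1%), against 5.06% and 9.09%. The set of all promoters keeps every promoter of a gene, and the expressed set takes the first listed for each gene. Neither follows the nearest-start rule used for the genes described here, so the shares are not fully alike. Such matches are descriptions of letters in a window and show no binding.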

How the data were processed

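The members and gene lists were chosen with earlier results of these data known. Per the labels' protocols, libraries were made from oligo(dT)-selected RNA with dUTP marking of strand and read as pairs. The submitters' processing notes name StringTie 2.1.6, HISAT2 2.2.1 and cutadapt 1.9, then edgeR and DESeq2, with build GRCh38. Not given in the sources used here: what each tool did, its settings, the annotation and whether counting used strand. The deposited table holds unnormalized counts of reads for every gene in every library. Its FPKM columns, named so per the file headers, were computed by the authors. From the counts, edgeR 4.0.16 in R 4.3.3 (filterByExpr with a minimum count of 10, TMM, glmQLFit, glmQLFTest, 1 mean per group, 9 libraries, no block) gave log2 fold changes, and each standard error is the log2 change over the root of F. Adjusted p-values cover all 21296 tested genes, two-sided. The rule for values per library took members called with both hairpins without overlap (12 highest by the smaller change), 5 with the largest called difference between hairpins, the most abundant of each role, and the 2 least changed at 5 FPKM or more. Other members are given by their changes. Alternatives were DESeq2 1.42.0, library totals, no filter, 2-group fits, the replicate block, limma 3.58.1 on log2(FPKM + 1) or (FPKM + 0.1) for means of at least 0.1 FPKM, and each library left out. Scripts were tested on simulated data. The first limits were not met by limma for recovery and by DESeq2 for false calls, and were then loosened. The floor of 3 counts covers counting error alone, as reads with no molecular identifiers are not independent molecules.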

Additional observations from a re-analysis of the deposited data

Results flagged for a closer look

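The change against shNC differed between the hairpins for 23 of the 52 genes, by the edgeR test of sh3 minus sh1 (adjusted p under 0.05). In this contrast 20.9% of expressed protein-coding genes were lower and 19.3% higher, and 13.0% and 12.9% of all tested genes. Both directions together, the 23 are near the share of expressed genes, but 21 were lower and 2 higher. The log2 difference was -0.99 for NUP210, which had moved in opposite directions. Among receptors and Ran genes it was -0.33 for RANBP1, -0.27 for XPO5, -0.25 for CSE1L, -0.20 for IPO9, -0.19 for KPNA2, -0.19 for TNPO1, -0.18 for XPO4, -0.15 for XPO6, -0.11 for KPNB1, -0.11 for RAN and -0.10 for IPO5. In the pore it was -0.29 for NUP43, -0.22 for NUP107, -0.22 for NUP58, -0.21 for NUP93, -0.20 for NUP133, -0.18 for NUP188, -0.18 for TPR, -0.13 for RANBP2 and -0.12 for NUP153. IPO8 at 0.18 and KPNA1 at 0.12 were higher in sh3.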

How the results depend on the processing

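Of 98 called changes (a gene in 1 contrast) 81 kept their call in all 16 settings tried for all genes and no called change altered its direction. No called change moved by over 1.5 times when 1 library was left out. The genes that rose with both hairpins numbered 27 to 31 under the settings that kept all libraries and 28 to 34 with 1 left out. Library totals in place of TMM gave 27, with a shift of the median of all genes of -0.0372 for sh1 and -0.026 for sh3, and called 1 gene lower with both hairpins, NUP153 (log2 -0.10 and -0.21). The genes higher in sh3 than in sh1 fell to 1 without the filter on low counts and to 1 under the replicate block, were 1 to 2 with 1 library left out, and were 3 with each limma fit. The genes lower in sh3 than in sh1, 21 as reported, were 15 with each limma fit, 25 with DESeq2, 19 without the filter and 17 to 23 with 1 library left out. The genes lower with sh1 were 1 to 2 with 1 library left out. The causes were not tested. For IPO4 the sh3 minus sh1 difference was 0.08 (adjusted p = 0.90), ranged from -0.31 to 0.33 with 1 library left out, and was -0.36 with the overlapping gene's counts added. The second sh1 library decided its sign. The STXBP6 difference of sh1 minus shNC, on library totals without TMM scaling, ranged from -0.0155 to 0.156 CPM with 1 library left out. Deviations of same-numbered libraries from their group means correlated at -0.0319 to 0.0207 over all tested genes. Those of differently numbered libraries correlated at -0.0251 to 0.0528. Such values cannot show whether libraries shared a culture or a day, so no pairing is read from them. The replicate block left 39 genes higher with sh1, 30 with sh3 and 30 with both, and removed the NUP54 and NXF1 calls with sh3 (adjusted p = 0.06 and 0.056).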

Other observations

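Genes of the nuclear lamina and envelope, which surround the pores, were read from a list of 18, of which all 18 were tested. With sh1 11 rose and 2 fell, with sh3 9 rose and 2 fell, and 8 rose with both. Among expressed protein-coding genes 33.2% rose and 25.9% fell with sh1, 24.6% and 18.1% with sh3, and 18.8% rose with both. One of them, MAN1B1, is a mannosidase of the endoplasmic reticulum that does not belong on the list, and it rose with both (log2 0.25 and 0.22). The B-type lamins LMNB1 and LMNB2 rose with both hairpins, at means of 136 CPM for the controls, 207 for sh1 and 206 for sh3, and of 488, 749.8 and 764 (log2 0.60 and 0.59, and 0.62 and 0.65). LMNA, which encodes the A-type lamins, rose by 0.12 with sh1 and 0.49 with sh3, and was higher in sh3 than in sh1. EMD, the envelope protein emerin, gave 0.44 and 0.31, and BANF1, which ties chromatin to the envelope, gave 0.31 and 0.33. SYNE2, a giant protein that joins the nucleus to the cytoskeleton, fell with both (log2 -0.77 and -0.95). It held 233, 190 and 324 CPM in the shNC libraries, 148, 145 and 144 in sh1 and 131, 125 and 132 in sh3. The third shNC library was the highest, so the size of the fall rests partly on it. LEMD3, an inner membrane protein, gave -0.02 with sh1 and fell by 0.50 with sh3. The receptor LBR gave -0.02 and -0.01 and passed in neither contrast.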
